A study of Rattus norvegicus with 12 samples.

Results

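The genes described here repair DNA or carry the checkpoint signal that DNA damage sets off. Of 49 genes on the list, 47 had a probe set on the array under their own symbol or an older alias, among 14217 genes that the array names singly. No probe set carried the symbol Fanci or Atm alone. The 47 genes were read by 58 probe sets, 9 of them by more than 1, and a gene was counted once, by its probe set of highest mean. The transcripts were measured on 12 Affymetrix Rat Genome 230 2.0 arrays in 2 rat liver epithelial cell lines, after 24 hr with 50 nM rapamycin or with its DMSO vehicle, on 3 plates for each of the 4 groups. WB-F344 is a diploid, non-tumorigenic line from the liver of an adult male Fischer rat that is rapamycin sensitive, and the labels give it a doubling time of 42 hr. WB311 arose spontaneously from WB-F344, is tumorigenic and rapamycin resistant, and has a doubling time of 15.5 hr in the labels. Each line stands for itself alone, so a difference between them belongs to this pair of lines. Rapamycin inhibits the kinase complex mTORC1, and the comparisons ask how the response of repair genes in the sensitive line differed from that in the resistant line.

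Cells mend DNA by routes tied to the cell cycle to different degrees. Homologous recombination copies the lost sequence from the sister chromatid, which exists only once S phase has begun, and the Fanconi anemia pathway and mismatch repair act on crosslinks and copying errors met at the replication fork. Base excision and nucleotide excision repair cut out damaged bases or short damaged stretches in any phase, and end joining ligates broken ends without a template. Genes of recombination and of the replication checkpoint are commonly transcribed at the G1/S transition under E2F factors, which gives a reason to look at transcripts of these routes apart. The 47 genes were therefore split into 17 S-phase-coupled genes, 3 damage checkpoint kinases, 24 genes of excision repair and end joining, and 3 genes of damage tolerance or direct reversal.

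Letters that E2F factors bind were looked for in the promoters, as a description of their sequence. A promoter of 300 bases, 250 before and 50 from the transcription start, was found in RefSeq's annotation of GRCr8 for 39 of the 47 genes and not for Xrcc2, Blm, Nbn, Chek2, Polb, Xpa, Ddb2 and Prkdc. The E2F octamers TTTCCCGC, TTTCGCGC, TTTGCCGC and TTTGGCGC were searched on both strands, and CCAAT, the letters that NF-Y binds, likewise. An octamer stood in 5 of the 39 promoters (12.8%), against 618 of all 27457 promoters (2.25%) and 343 of the 7315 promoters of genes tested for the difference in response (4.69%). By class it stood in 3 of 14 S-phase-coupled promoters, those of Bard1, Fancd2 and Msh6, in 1 of 2 checkpoint promoters, that of Chek1, and in 1 of 20 promoters of excision repair and end joining, that of Ung. CCAAT stood in 17 of the 39 (43.6%), close to the 37.7% of all promoters, and in none of these genes did it overlap an octamer. Of the genes whose response differed between the lines (below), Chek1, Ung and Fancd2 hold an octamer. The promoters of Rad54l, Exo1, Rad51ap1, Tdg, Lig4 and Mgmt hold none, and for Xrcc2 no promoter was found. Bard1 and Msh6 hold an octamer, but their responses did not differ past the test. The octamer lay wholly before the start in Bard1, Chek1 and Ung. Their windows of 120 bases on the minus strand are shown 5′ to 3′ with the octamer in capitals. The Bard1 window, chr9:80143886-80144005, holds it 205 bases before the start, the Chek1 window, chr8:44629844-44629963, 28 bases before the start and read on the opposite strand, and the Ung window, chr12:48154046-48154165, 20 bases before the start.
Bard1: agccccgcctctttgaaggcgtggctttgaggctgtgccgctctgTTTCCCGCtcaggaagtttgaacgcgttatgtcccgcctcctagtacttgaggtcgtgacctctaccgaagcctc
Chek1: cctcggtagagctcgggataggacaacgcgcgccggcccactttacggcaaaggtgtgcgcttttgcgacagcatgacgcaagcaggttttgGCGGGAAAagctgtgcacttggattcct
Ung: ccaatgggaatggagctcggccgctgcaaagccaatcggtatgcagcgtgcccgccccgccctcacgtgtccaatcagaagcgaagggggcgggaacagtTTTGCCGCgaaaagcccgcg

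Intensities are the authors' normalized values on a linear scale, with a median per array of 59.5 to 62.9, and are given by plate in the order 1, 2, 3. Changes are differences of log2 intensity with the standard error (SE) and Benjamini-Hochberg adjusted p of a limma fit of all 12 arrays. A gene was tested where its mean intensity was at least 100 in a compared group, and it was said to rise or fall at an adjusted p under 0.05 and a fold change of at least 1.2. Nothing in the labels ties the plates to separate experiments, so the p-values measure the spread between plates. The WB-F344 plates numbered 2 stood apart within both treatments, with a Gapdh 3′ minus 5′ signal of 0.34 and 0.17 (log2) against -0.12 to -0.04 on the other 10 arrays, and the spread between plates was wider in WB-F344 (median SD 0.15 and 0.13 log2) than in WB311 (0.078 and 0.064). Of the epithelial markers Krt8 was at a mean intensity of 2986 in WB-F344 with vehicle and 6103 in WB311. Krt18 (23 and 247) and Krt19 (23.1 and 109.9) were near background in WB-F344 alone. The group means of Cdh1 (17.4 to 21.5) and Epcam (14.4 to 15.1) were near background in both. Summed mesenchymal markers were at 44516 to 52399 in WB-F344 and 13021 to 13314 in WB311 with vehicle. Hepatocyte markers summed to 165 to 193 and endothelial markers to 32.6 to 36.1 over all arrays. Of the leukocyte markers Ptprc (group means of 21.6 to 22.9) and Cd68 (27.9 to 35.3) were near background, while Cd14 rose with rapamycin in WB-F344 from 566 to 1123 (0.99, adjusted p = 5.59e-05 by limma), and the leukocyte sum was 551 to 667 with vehicle and 1033 to 1275 with rapamycin there. The part of these marker differences in the results was not tested.

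In WB-F344 cells, more repair genes fell with rapamycin than rose. Of 40 repair genes tested, 13 fell, 3 rose and 24 did not pass the test, with a median change of -0.22. Over all genes tested 17.4% fell and 7.81% rose, and the median was -0.07. The split of calls depended on scaling, since 66.4% of all called probe sets fell in the values as deposited, 73.9% after median centring and 51.7% after cyclic loess. Among S-phase-coupled genes 5 of 13 fell and none rose, with 11 changes below 0 and a median of -0.28. Among genes of excision repair and end joining 5 of 21 fell and 2 rose, with 13 changes below 0 and a median of -0.08. Brca1, Bard1, Xrcc3, Msh3, Xpa, Ercc5 and Ddb2 were under 100 in both WB-F344 groups and were not tested. Rad51ap1 and Fanca entered this test through their vehicle level alone, and Lig4 through its rapamycin level alone. Their part in the counts is set in part by the filter. RNA of whole plates was measured, so fewer cells in a state that holds a transcript and less of it per cell cannot be told apart.

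**Figure D1:**
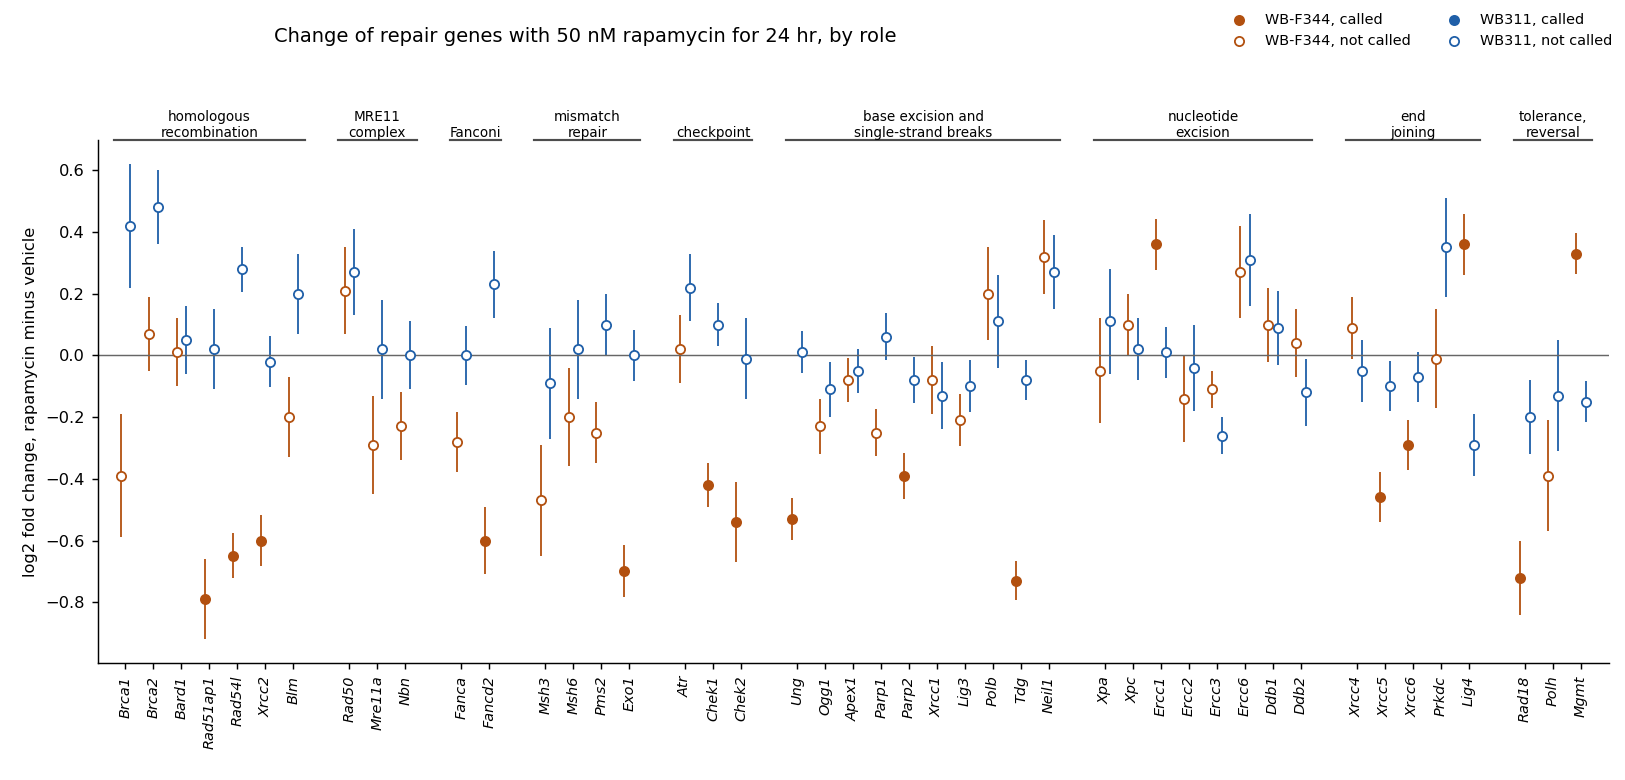
Change with rapamycin (log2 intensity, rapamycin minus vehicle) of the 45 repair genes with a mean of at least 100 in a group, ordered by role, with WB-F344 in orange, WB311 in blue, bars for the SE of the limma fit and filled points for genes that passed the test. Filled points are all orange, 13 below 0 and 3 above, and the blue points lie between -0.29 and 0.48.

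The recombination genes that fell were Rad54l, Rad51ap1 and Xrcc2. Rad54l, a motor protein of strand invasion into the intact duplex, was at 306, 298 and 275 on the WB-F344 vehicle plates and at 197, 182 and 183 with rapamycin. The groups did not overlap, and the change was -0.65 (SE 0.073, adjusted p = 8.18e-05 by limma). Rad51ap1, which aids the same step, was at 165, 194 and 139 with vehicle and at 97.3, 109 and 81 with rapamycin, so that every rapamycin plate lay under the lowest vehicle plate. Its change was -0.79 (SE 0.13, adjusted p = 0.000837 by limma). Xrcc2, which acts in recombination before strand invasion, went from 191, 210.1 and 188 to 140.0, 135 and 115, again without overlap, for a change of -0.60 (SE 0.083, adjusted p = 0.000295 by limma). Brca2, which acts on the resected single strand, did not pass the test (0.07, adjusted p = 0.702), nor did the helicase gene Blm (-0.20, adjusted p = 0.282). Brca1 lay under the filter at 114, 60.4 and 94 with vehicle and 78.5, 52.7 and 69.9 with rapamycin, and it is called only where vehicle plate 2 is left out (-0.65, adjusted p = 0.00765 by limma). Bard1, the partner of Brca1, was at 69.1 to 81.8 with vehicle and at 68.3 to 88.8 with rapamycin. Xrcc3 was lowest, at group means of 29.2 to 47.3 over all 4 groups.

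None of the genes of the MRE11 complex, which senses broken ends and trims them, passed the test in WB-F344, with changes of 0.21 for Rad50, -0.29 for Mre11a and -0.23 for Nbn. Without these 3 genes the S-phase-coupled count becomes 5 of 10, with a median of -0.44. Fancd2, which marks the crosslinked fork once it is ubiquitinated, was at 507, 618 and 494 with vehicle and at 372, 387 and 311 with rapamycin, a fall without overlap of 0.60 (SE 0.11, adjusted p = 0.00148 by limma). Fanca, of the complex that ubiquitinates it, changed by -0.28 and missed the threshold at an adjusted p of 0.053. In mismatch repair Exo1, the exonuclease that removes the stretch holding the mismatch, was at 493, 538 and 471 with vehicle and at 293, 343 and 288 with rapamycin. Its change of -0.70 (SE 0.084, adjusted p = 0.00012 by limma) put all rapamycin plates well under all vehicle plates. The mismatch sensor Msh6 (-0.20, adjusted p = 0.403) and Pms2 (-0.25, adjusted p = 0.0779), which nicks the new strand, did not pass, and Msh3, the sensor of larger loops, had means of 86.6 and 63.5 and was not tested.

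Of the checkpoint kinases, the effectors fell and the measured sensor did not pass the test. Chek1, which restrains the cycle when forks stall, was at 615, 632 and 579.6 with vehicle and at 461, 482 and 427 with rapamycin, with no overlap. Its change was -0.42 (SE 0.070, adjusted p = 0.00102 by limma). Chek2, the kinase downstream of Atm, went from 261, 194 and 239 to 184, 135 and 159, for a change of -0.54 (SE 0.13, adjusted p = 0.00808 by limma). All Chek2 rapamycin plates lay under all vehicle plates, but with only the WB-F344 arrays in the fit the adjusted p was 0.0586. By the methods' t-test it was 0.0718. Atr, the sensor upstream of Chek1, was at 99.4, 118 and 91.7 with vehicle and at 102, 116 and 95.3 with rapamycin, a change of 0.02 (adjusted p = 0.912).

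Base excision repair held the fall of smallest adjusted p among all members. Tdg, the glycosylase that removes thymine from G:T mispairs and also acts in DNA demethylation, was at 803, 862 and 822 with vehicle and at 487, 521 and 494 with rapamycin. The groups did not overlap, and the change was -0.73 (SE 0.064, adjusted p = 1.61e-05 by limma). Ung, which removes uracil and whose promoter is among those shown above, was at 793, 799 and 846 with vehicle and at 532, 585 and 567 with rapamycin, a change without overlap of -0.53 (SE 0.068, adjusted p = 0.00017 by limma). Parp2, which signals single-strand breaks, went from 404, 455 and 424 to 336, 342 and 305, for a change of -0.39 (SE 0.074, adjusted p = 0.00234 by limma). Its larger relative Parp1 changed by -0.25 with an adjusted p of 0.029, under the fold change asked for. Ogg1 (-0.23), Lig3 (-0.21), Apex1 (-0.08), Xrcc1 (-0.08), Polb (0.20) and Neil1 (0.32), which cover removal of oxidized bases, cleavage of the abasic site, gap filling and ligation, did not pass.

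End joining moved in both directions. Xrcc5, coding for the Ku80 subunit that holds broken ends, was at 614, 703 and 654 with vehicle and at 479.9, 523 and 436 with rapamycin, a change of -0.46 (SE 0.081, adjusted p = 0.00154 by limma) with no overlap. Xrcc6, the Ku70 partner, changed by -0.29 (SE 0.080, adjusted p = 0.0199 by limma), and it lost the call without rapamycin plate 2 (adjusted p = 0.0603) and without vehicle plate 3 (0.0618). It also lost the call after cyclic loess (0.0625) and after centring on probe sets with a mean of at least 100 (0.0834). The same held with only the WB-F344 arrays in the fit (0.0542) and without both plates numbered 2 (0.0704). Lig4, the ligase of this route, was dim, at 91, 109 and 89.2 with vehicle and 118, 133 and 120.3 with rapamycin, and rose by 0.36 (SE 0.10, adjusted p = 0.0191 by limma). That call was lost without rapamycin plate 2 (0.0573), vehicle plate 1 (0.062) or vehicle plate 3 (0.0741). The Lig4 call was also lost with only the WB-F344 arrays in the fit (0.0618) and by the methods' t-test (0.0509). A further Lig4 probe set rose by 0.57 (adjusted p = 0.0132 by limma). Xrcc4, the Lig4 partner (0.09), and Prkdc, the Ku-bound kinase (-0.01), did not pass.

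In nucleotide excision repair no gene fell in WB-F344, and the median over the 6 tested was 0.10. Ercc1, part of the nuclease that cuts 5′ of the lesion, was at 427, 349.6 and 391 with vehicle and at 534, 465 and 496 with rapamycin, a rise without overlap of 0.36 (SE 0.082, adjusted p = 0.007 by limma) that missed the threshold with only the WB-F344 arrays in the fit (0.0618). The damage sensors Xpc (0.10) and Ddb1 (0.10), the helicases Ercc2 (-0.14) and Ercc3 (-0.11), and Ercc6 (0.27), which acts at stalled RNA polymerase, did not pass.

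Damage tolerance and reversal gave a fall and a rise. Rad18, the ligase that modifies PCNA so that a damaged template can be bypassed, was at 371, 447 and 305 with vehicle and at 219.6, 245 and 209.8 with rapamycin. Its change was -0.72 (SE 0.12, adjusted p = 0.000824 by limma), with no overlap. Mgmt, which takes the alkyl group off guanine without cutting the strand, was at 2258, 2113 and 2192 with vehicle and at 2849.5, 2728 and 2689.8 with rapamycin, and rose by 0.33 (SE 0.066, adjusted p = 0.00302 by limma). Polh, the bypass polymerase, changed by -0.39 with an adjusted p of 0.146, its plate 2 lying below plates 1 and 3 in both groups.

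Plates of the same number deviated together in WB-F344, and with the plate number as a block 21 repair genes were called in place of 16. The block added Mre11a (-0.29, adjusted p = 0.0161), Fanca (-0.28, 0.0494), Neil1 (0.32, 0.0126), Ercc6 (0.27, 0.0249) and Polh (-0.39, 0.00521), each by limma. Genes of DNA replication and proliferation outside the repair list moved beside these falls: of 7 measured, Pcna (-0.36), Mcm2 (-0.44), Mcm3 (-0.48), Mcm5 (-0.57), Mcm6 (-0.63) and Mki67 (-0.46) fell and Top2a (-0.40, adjusted p = 0.106) did not pass. Whether the repair falls follow from theirs was not tested.

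**Figure D2:**
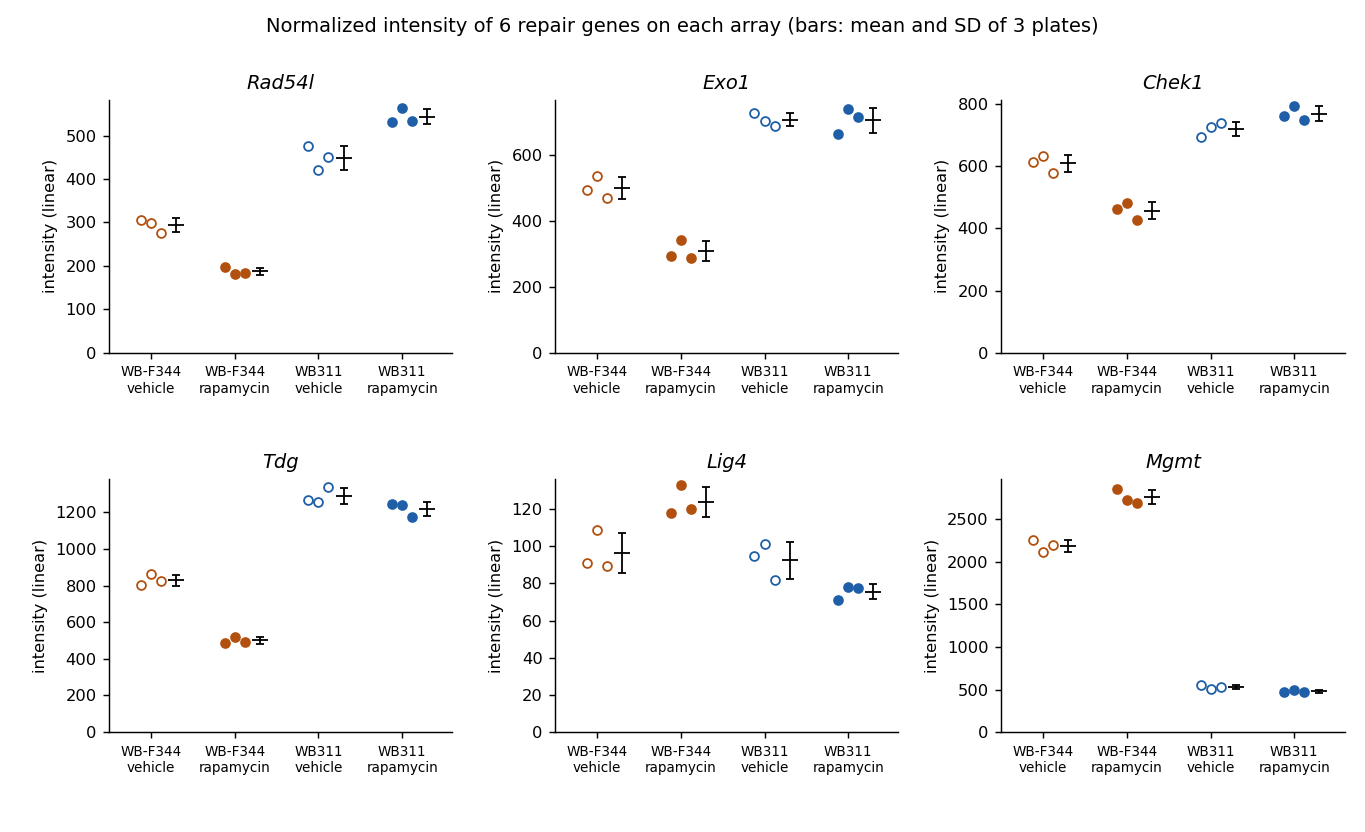
Intensity (linear scale) on each plate in the 4 groups for Rad54l, Exo1, Chek1, Tdg, Lig4 and Mgmt, with points for plates and bars for the mean and SD of the group. In the Rad54l, Exo1, Chek1 and Tdg panels the WB-F344 rapamycin plates lie below the other 9 plates, and in the Mgmt panel both WB-F344 groups (2113 to 2849.5) lie far above both WB311 groups (466 to 555).

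In WB311 cells, no repair gene passed the test with rapamycin. Of 43 tested, 0 rose or fell by limma, with 6 at an unadjusted p under 0.05, while 2.05% of all genes tested fell and 1.7% rose. The median change was 0.01, and the changes ranged from -0.26 to 0.48. Xrcc3, Neil1, Ercc5 and Lig4 were under 100 in both groups and were not tested, and the 2 Lig4 groups read 94.9, 101 and 81.7 with vehicle and 71.1, 78.2 and 77.6 with rapamycin. The intervals are those of 3 plates, and a missed threshold does not show that a gene held its level.

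The changes of smallest adjusted p in WB311 were in Ercc3, Brca2 and Rad54l, and Brca1 is given with them since it is called under another setting. Brca2 was at 204, 208 and 211 with vehicle and at 262, 306 and 301 with rapamycin, all rapamycin plates above all vehicle plates, at 0.48 (SE 0.12, adjusted p = 0.0513 by limma). Rad54l was at 476, 420.1 and 450.2 with vehicle and at 532, 563 and 534 with rapamycin (0.28, SE 0.073, adjusted p = 0.0635 by limma), likewise without overlap and opposite in sign to its fall in WB-F344. Brca1 was at 139, 128 and 160.1 with vehicle and at 187, 193 and 191 with rapamycin (0.42, SE 0.20, adjusted p = 0.316 by limma). Ercc3, a TFIIH helicase, went from 555, 524 and 570.4 to 463, 457 and 456, at -0.26 with an adjusted p of 0.0376 but less than the fold change asked for. The limma call depended on the estimate of spread: with only the WB311 arrays in the fit Brca1, Brca2, Rad54l and Ercc6 are called higher, at adjusted p of 0.0181, 0.00724, 0.039 and 0.0454. The other S-phase-coupled genes that fell in WB-F344 changed here by 0.02 (Rad51ap1), -0.02 (Xrcc2), 0.23 (Fancd2) and -0.00 (Exo1), none past the test. Chek1 (0.10), Chek2 (-0.01), Tdg (-0.08), Ung (0.01), Parp2 (-0.08), Xrcc5 (-0.10), Xrcc6 (-0.07), Rad18 (-0.20), Ercc1 (0.01) and Mgmt (-0.15) did not pass either. None of the 7 replication and proliferation genes passed in WB311.

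The difference between the responses was tested directly, as the change in WB311 minus that in WB-F344. It passed in 10 of 45 repair genes, higher in 8 and lower in 2, where over all genes tested 7.98% were higher and 3.6% lower. Of all probe sets called 31.5% were lower in the values as deposited, 26% after median centring and 44.5% after cyclic loess. The median was 0.23, against 0.06 over all genes. It is made of the same arrays as the changes in each line and is no further evidence beside them. All 16 S-phase-coupled genes tested had a positive difference, 5 of them past the test, with a median of 0.39. Of 23 genes of excision repair and end joining 2 were higher and 1 lower, with 13 positive and a median of 0.04. The share of positive differences over all genes was not counted. Brca1, Bard1, Msh3, Xpa and Ddb2 entered this test through WB311 alone, and Neil1 through WB-F344 alone. Their part in these counts is set in part by the filter.

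By role the genes past this test were led by recombination. Rad54l had the largest difference, 0.92 (SE 0.10, adjusted p = 0.000272 by limma), since it fell in WB-F344 and lay higher with rapamycin in WB311. Fancd2 followed at 0.83 (SE 0.15, adjusted p = 0.00416), with 669, 660.1 and 762 on the WB311 vehicle plates and 807, 829 and 815 with rapamycin. For Rad51ap1 the difference was 0.82 (SE 0.18, adjusted p = 0.0137), for Exo1 0.70 (SE 0.12, adjusted p = 0.00312) and for Xrcc2 0.58 (SE 0.12, adjusted p = 0.00769). These 3 differed in WB311 by less than their plates' spread, with Rad51ap1 at 175, 171 and 199.5 against 190.0, 187 and 177, Exo1 at 728, 704 and 689 against 664, 739 and 716, and Xrcc2 at 225, 225 and 235 against 229.7, 217 and 231. Chek1, at 693, 726 and 738 against 761, 795 and 749 in WB311, differed in response by 0.51 (SE 0.098, adjusted p = 0.00604).

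The base excision glycosylases Tdg and Ung were the excision genes with a positive difference past the test. Both fell in WB-F344 (-0.73 and -0.53), and neither passed the test in WB311 (-0.08 and 0.01). Tdg was at 1265, 1258 and 1337 on the WB311 vehicle plates and at 1245, 1237 and 1173 with rapamycin, a difference in response of 0.65 (SE 0.091, adjusted p = 0.00105 by limma). Ung was at 839.7, 895 and 929.8 against 874, 904 and 902, a difference of 0.54 (SE 0.096, adjusted p = 0.00368 by limma). Lig4 and Mgmt ran the other way, rising in WB-F344 and lying lower with rapamycin in WB311. Lig4 entered this test through its WB-F344 rapamycin level alone. The difference was -0.65 for Lig4 (SE 0.14, adjusted p = 0.0124 by limma), although a further Lig4 probe set, at -0.67, did not pass (0.0656), and -0.48 for Mgmt (SE 0.094, adjusted p = 0.00672 by limma), at 555, 502 and 529 against 466, 497 and 469 in WB311. Rad18 (0.53, adjusted p = 0.0658), Chek2 (0.53, 0.0874), Brca1 (0.81, 0.0983), Xrcc5 (0.35, 0.0739), Parp2 (0.31, 0.0892), Parp1 (0.31, 0.097) and Ercc1 (-0.35, 0.0814) missed the threshold in this test. With the plate number as a block within each line 19 genes passed, among them Brca1 (adjusted p = 0.00224), Chek2 (0.00937), Rad18 (0.01), Ercc1 (0.0273), Xrcc5 (0.0366) and Parp1 (0.0469). The numbers do not pair the plates in WB311, and in WB-F344 they set apart only the plates numbered 2.

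**Figure D3:**
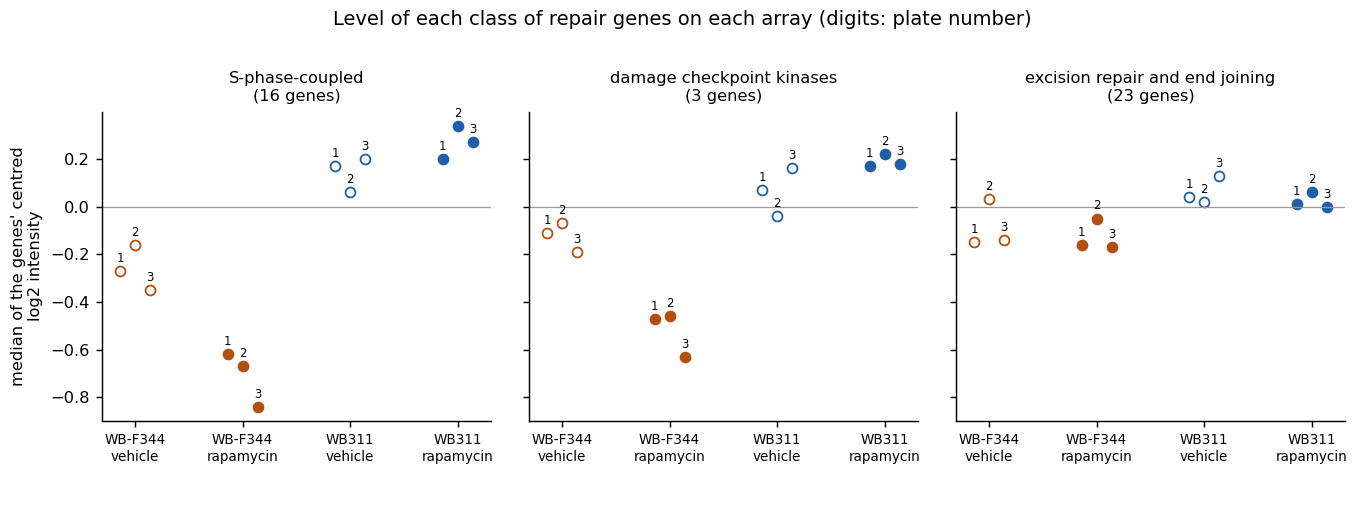
Level of each class on each plate, as the median over its genes of log2 intensity with each gene first centred on its median over the 12 arrays, for S-phase-coupled genes, checkpoint kinases, and excision repair with end joining. S-phase-coupled genes lie at -0.35 to -0.16 on the WB-F344 vehicle plates, -0.84 to -0.62 with rapamycin and 0.06 to 0.34 in WB311, while excision repair with end joining stays within -0.17 and 0.13 on all plates.

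Without drug, the lines differed in the levels of 24 of 44 repair genes tested. In WB311 18 were higher than in WB-F344 and 6 were lower, with a median of 0.24, where 28.0% of all genes tested were higher, 28.8% lower and the median was 0.00. Of 16 S-phase-coupled genes 9 were higher and none lower, with a median of 0.38. Of 22 genes of excision repair and end joining 8 were higher and 4 lower, with a median of 0.13. Brca1, Bard1, Msh3, Xpa and Ddb2 entered this test through their level in WB311 alone, and Neil1 through WB-F344 alone, so their part in the counts is set in part by the filter.

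The largest differences in the S-phase-coupled class were in Nbn and Bard1. Nbn, the MRE11 complex subunit that recruits Atm, was at 192, 232 and 172 in WB-F344 and at 604, 579 and 622 in WB311 with vehicle, higher by 1.61 (SE 0.11, adjusted p = 6.05e-08 by limma). Bard1 was at 81.8, 76.5 and 69.1 in WB-F344 and 219.9, 195 and 219 in WB311, higher by 1.48 (SE 0.11, adjusted p = 1.08e-07 by limma). For both genes the WB311 plates lay far above every WB-F344 plate, and rapamycin moved neither past the test in WB311. Blm was at 276, 356 and 249.9 against 566, 503 and 541 (0.88, SE 0.13, adjusted p = 7.56e-05 by limma). Brca1 (0.71), Brca2 (0.62), Rad54l (0.61), Exo1 (0.50) and Fancd2 (0.37) were higher as well, Brca1 not by the methods' t-test (adjusted p = 0.08). Rad50 (0.38, adjusted p = 0.0337) lost its call without WB-F344 vehicle plate 3 (0.14), WB311 vehicle plate 1 (0.113) or WB311 vehicle plate 2 (0.0683). A further Rad50 probe set was higher by 0.52 (adjusted p = 0.000373 by limma), and the last, under 100 in all groups, was not tested. Rad51ap1 (0.14), Xrcc2 (0.22), Mre11a (0.27), Fanca (0.13), Msh3 (0.23), Msh6 (0.23) and Pms2 (-0.23) did not pass, and neither did Atr (0.20), Chek1 (0.24) or Chek2 (0.25).

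Excision repair was divided between the lines, also within a pathway. Ddb2, the damage sensor for ultraviolet lesions, was at 53.4, 52.9 and 49.4 in WB-F344 and at 153, 122 and 161 in WB311, higher by 1.47 (SE 0.11, adjusted p = 1.67e-07 by limma). A further Ddb2 probe set, under 100 in all groups and not tested, had means of 54.6 and 62.3 (0.19). The Ddb2 partner Ddb1 was lower in WB311, at 3213, 3113 and 3228 against 4657, 6204 and 4707 (-0.69, SE 0.12, adjusted p = 0.000262 by limma), though 1 of 3 Ddb1 probe sets did not pass. Xpa, which checks the lesion, was higher by 1.12, Ercc1 by 0.30 and Xpc lower by 0.27. The Xpc call (adjusted p = 0.0374) held without WB-F344 vehicle plate 1 alone among the 6 plates left out in turn, with adjusted p of 0.052 to 0.142 otherwise, and the Ercc1 difference fell to 0.22 without WB-F344 vehicle plate 2. In base excision Neil1, a glycosylase for oxidized bases, was at 160.1, 164 and 146 in WB-F344 and at 56.9, 61.9 and 79.6 in WB311, lower by 1.26 (SE 0.12, adjusted p = 2.25e-06 by limma). Parp2 lay at 771, 748 and 816 in WB311, higher by 0.86 (SE 0.074, adjusted p = 5.97e-07 by limma), and Tdg was higher by 0.64 (SE 0.064, adjusted p = 2.96e-06 by limma). Lig3 (0.37) and Polb (0.92) were higher too, though a further Polb probe set gave 0.26 and did not pass. The Ku subunits differed in opposite directions, Xrcc5 by 0.49 (946, 898 and 913 in WB311) and Xrcc6 by -0.35 (286, 263 and 266 against 336, 349 and 353). Ung, Ogg1, Apex1, Parp1, Xrcc1, Ercc2, Ercc3, Ercc6, Xrcc4 and Prkdc did not pass.

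The largest difference between the lines among the 47 genes was in direct reversal. Mgmt, at 2258, 2113 and 2192 in WB-F344, was at 555, 502 and 529 in WB311 with vehicle, which is 4.14-fold lower (-2.05, SE 0.066, adjusted p = 6.46e-11 by limma). With rapamycin it was 5.77-fold lower (-2.53, SE 0.066, adjusted p = 9.14e-12 by limma). Polh was at 289, 175 and 265 in WB-F344 and at 110.0, 101 and 121 in WB311, lower by 1.10 (SE 0.18, adjusted p = 0.000224 by limma). Rad18 was higher in WB311, at 538, 499.6 and 489 (0.46, SE 0.12, adjusted p = 0.00454 by limma), but not by the methods' t-test (0.0605).

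**Figure D4:**
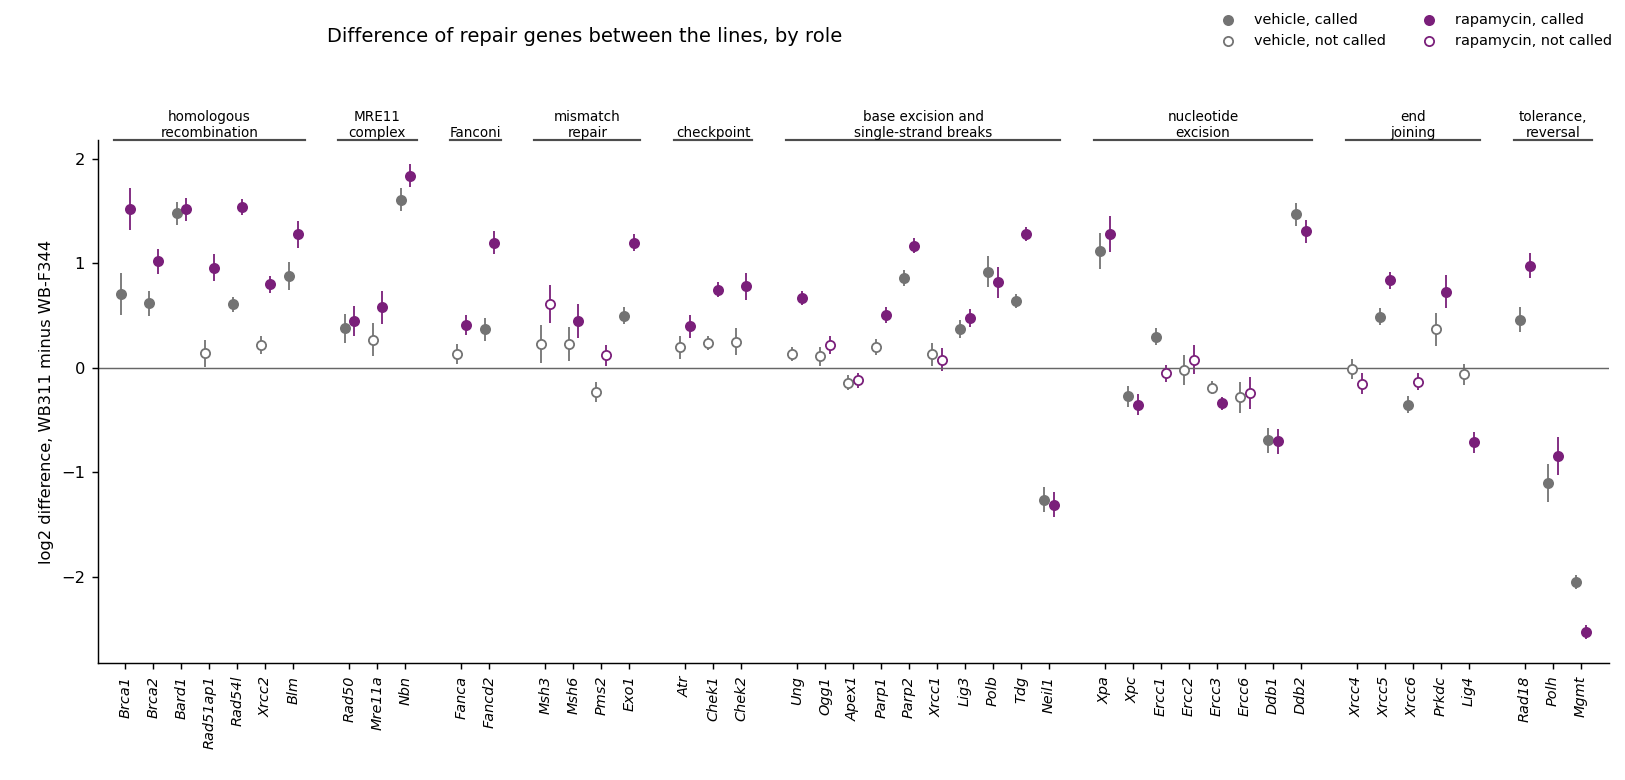
Difference between the lines (log2 intensity, WB311 minus WB-F344) of the 45 repair genes with a mean of at least 100 in a group, by role, with vehicle and with rapamycin, bars for the SE of the limma fit and filled points for genes that passed the test. Mgmt lies lowest in both (-2.05 and -2.53) and Nbn highest (1.61 and 1.84).

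With rapamycin on both lines, 28 of 44 repair genes were higher in WB311 and 7 lower, with a median of 0.54, where 34.1% of all genes tested were higher, 27.0% lower and the median was 0.06. Of 15 S-phase-coupled genes 14 were higher, with a median of 1.02, and Pms2 (0.12) was the exception. The difference was 1.84 for Nbn, 1.54 for Rad54l, 1.52 for Bard1 and Brca1, 1.28 for Blm, 1.2 for Exo1 and Fancd2, 1.02 for Brca2, 0.96 for Rad51ap1 and 0.80 for Xrcc2. Mre11a (0.58), Fanca (0.41), Rad50 (0.45) and Msh6 (0.45) were higher as well, but Rad50 lost its call without 1 of 3 plates (adjusted p 0.0596 to 0.0664) and Msh6 without 1 of 4 (0.0609 to 0.103), and Mre11a and Rad50 did not pass by the methods' t-test (0.0542 and 0.0786). The further Rad50 probe set was higher by 0.54 (adjusted p = 0.000238 by limma). Rad51ap1 and Fanca entered through WB311 alone here, along with Brca1, Bard1, Xpa and Ddb2. All 3 checkpoint kinases were higher in WB311: Chek1 by 0.75, Chek2, at 273, 281 and 263, by 0.78, and Atr, at 131, 136 and 143, by 0.40.

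In excision repair and end joining 10 of 23 genes were higher in WB311 with rapamycin and 5 lower, with a median of 0.08. Over all genes tested 34.1% were higher and 27.0% lower, and the median of 0.06 was close to that of this class. Ddb2 (1.31), Tdg (1.28), Xpa (1.28), Parp2 (1.17), Xrcc5 (0.84), Polb (0.82), Prkdc (0.73), Ung (0.67), Parp1 (0.51) and Lig3 (0.48) were higher in WB311. The further Ddb2 probe set gave 0.16 and was not tested. The further Polb probe set gave 0.30 and did not pass (adjusted p = 0.0509 by limma). Neil1 (-1.31), Lig4 (-0.71), Ddb1 (-0.70), Xpc (-0.35) and Ercc3 (-0.34) were lower, Neil1 and Lig4 through the filter in WB-F344 alone and Xpc not without WB-F344 rapamycin plate 2. Of the tolerance and reversal genes Rad18 was higher (0.98) and Polh lower (-0.84), beside Mgmt. Ercc5, a nuclease of nucleotide excision, had group means of 48.2 to 67.1 and was tested in no comparison.

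Repair genes outside these 47 were counted in the same fit from a wider list of 87, of which 69 had a probe set. In WB-F344 15 of 55 tested fell with rapamycin and 2 rose, beside 17.4% and 7.81% of all genes. By route 5 of 14 S-phase-coupled genes and 5 of 12 checkpoint genes fell. In excision repair and end joining 2 of 20 fell, and in damage tolerance and reversal 3 of 9. The rises were in the S-phase-coupled gene Rmi1 (0.29) and in Ube2b (0.37) of damage tolerance. The S-phase-coupled falls were in Fancb (-0.83), Rad51c (-0.67), the helicase Recql4 (-0.60), Ube2t (-0.56), the enzyme that passes ubiquitin to Fancd2, and Fancl (-0.37), its ligase. The checkpoint falls were in Timeless (-0.76) and Clspn (-0.75), which carry the Atr signal at the fork, Mdc1 (-0.59), Wee1 (-0.44) and Rad1 (-0.35). Among the 15 that fell, Fancb, Recql4 and Alkbh2 entered the WB-F344 test through their vehicle level alone. In WB311 2 of 59 fell, Alkbh3 and Ccnh, and none rose, beside 2.05% and 1.7% of all genes. The difference in response was higher in 10 of 59 and lower in none, beside 7.98% and 3.6%. Between the lines with vehicle 23 of 57 were higher in WB311 and 6 lower, beside 28.0% and 28.8%, and with rapamycin 31 of 59 were higher and 4 lower, beside 34.1% and 27.0%.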

How the data were processed

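The authors hybridized RNA of 12 plates, 3 per line and treatment (50 nM rapamycin or vehicle, 24 hr), to Affymetrix Rat Genome 230 2.0 arrays. The authors deposited intensity values normalized by Robust Multiarray Average on a linear scale, which compresses differences of dim probe sets; its software version is not stated. Of 31099 probe sets 57 were controls. Groups followed the labels. Log2 of the other 31042 was fitted with limma 3.58.1 in R 4.3.3 (lmFit, contrasts, eBayes) as 4 groups, without a block, for 5 comparisons. Probe sets with a mean under 100 in both groups were not tested, p-values were adjusted by Benjamini-Hochberg over all tested probe sets, and calls needed an adjusted p under 0.05 and a fold change of at least 1.2. Code was tested on simulated data. Symbols came from the platform annotation, and older aliases were accepted.

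The 3 arrays per group limit the precision. Plate deviations of the same number correlated at 0.561 to 0.871 in WB-F344, where plates 1 and 3 also correlated crosswise (0.605 and 0.581). In WB311 deviations of the same number correlated at -0.139 to -0.000258. The numbers thus did not pair the plates in WB311 and did not tell plates 1 and 3 apart in WB-F344. The main fit held no block, and the alternative with a replicate block set it within each line. Alternatives were median centring, cyclic loess, no intensity filter, the fold change filter before the adjustment, only the groups compared, the methods' t-test, a replicate block, and arrays left out. A further alternative was a vote over the calls of a gene's tested probe sets, where a tie counted as a call. The genes, routes and lists were chosen with earlier results of these data known. Values by plate are given for, per comparison and class, up to 4 called genes of smallest adjusted p, and for other genes near a threshold or in another comparison, chosen after their values were seen. Wider-list genes are named likewise.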

Additional observations from a re-analysis of the deposited data

Results flagged for a closer look

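For 10 repair genes the change with rapamycin differed between the lines by the test of the difference itself (WB311 change minus WB-F344 change, log2). It was higher in WB311 for Rad54l (0.92), Fancd2 (0.83), Rad51ap1 (0.82), Exo1 (0.70), Tdg (0.65), Xrcc2 (0.58), Ung (0.54) and Chek1 (0.51), each of which fell in WB-F344. It was lower for Lig4 (-0.65) and Mgmt (-0.48), which rose in WB-F344. None of the 10 passed the test within WB311 with all arrays in the fit, where Lig4 was not tested. Rad54l is called higher within WB311 under other settings, as with only the WB311 arrays (adjusted p = 0.039 by limma). All 10 calls of the difference in response stood in every alternative that was run. In the vote of probe sets Lig4 stood only by a tie, as its further probe set did not pass (adjusted p = 0.0656 by limma).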

How the results depend on the processing

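No result changed sign under an alternative. In WB311 the count of repair genes called, 0 by limma with all arrays and 0 with any array left out, was 1 after median centring or cyclic loess, 2 with the fold change filter first, 2 after centring on probe sets with a mean of at least 100 (chosen after seeing the data), 4 with only the WB311 arrays, 4 by the methods' t-test and 5 with the replicate block, where the plate numbers do not pair. The count for the difference in response, 10, was 16 without the WB-F344 plates numbered 2, 18 with the fold change filter first and 19 with the replicate block within lines. The cause was not tested. Without 1 array it was 10 to 12.

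The counts of 16 in WB-F344, 24 between the lines with vehicle and 35 with rapamycin stayed within 1.5 times, at 12 to 21, 20 to 29 and 33 to 37 over the alternatives, and at 15 to 21, 22 to 28 and 33 to 34 with 1 array left out. Pms2 is called lower in WB311 with vehicle (-0.30, adjusted p = 0.0241 by limma) without WB-F344 vehicle plate 1. After the added centring 52.7% of all probe sets called in WB-F344 fell and 46.8% of those called for the difference in response were lower.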

Other observations

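Outside the 47 genes, the recombination gene Rad51b was at 95.1, 99.2 and 84.7 in WB-F344 with vehicle and at 1843, 1876 and 1935 in WB311, higher by 4.34 (SE 0.076, adjusted p = 3.9e-13 by limma). The WB-F344 level lay under the intensity filter, so the size of the difference is rough. Rad51b was higher in WB311 by 4.91 with rapamycin, at 61.1, 56.5 and 53.8 against 1723, 1697 and 1735. In WB-F344 its rapamycin plates lay under its vehicle plates, but it was not tested there.

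Alkbh3, which reverses alkylation of single-stranded DNA, was the repair gene of smallest adjusted p with rapamycin in WB311 among both lists. It was at 699.9, 681 and 727 with vehicle and at 479.6, 481 and 485 with rapamycin, a change of -0.54 (SE 0.066, adjusted p = 0.00154 by limma). In WB-F344 it went from 442, 408 and 451 to 339, 359 and 331 (-0.34, adjusted p = 0.00272), and the difference in response did not pass (-0.21, adjusted p = 0.209). Ccnh, the cyclin of the TFIIH kinase, also fell in WB311 (-0.29, adjusted p = 0.0399).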
